A study of Danio rerio with 9 samples.

Results

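The transcripts described here are the 200 whose ratio to a common pool changed least over 9 stages of early zebrafish (Danio rerio) development, among those detected at every stage. They were picked out of the 16176 oligonucleotide IDs of the array with the prefix CGENXEB. A transcript counted as detected when its Cy5 spot signal was higher than 95% of the 262 blanks printed on that array (the blank limit), which was so at all 9 stages for 5804 IDs. Of these, 5794 also had a ratio on every array, and the 200 with the smallest range, meaning the highest minus the lowest log2 ratio, were taken. The other 5594 are the transcripts they are set against. The 200 were thus chosen by their log2 ratios, and their evenness is a description and not a finding.

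The stages were 64-cell, high and sphere before epiboly, the spreading of the cell sheet over the yolk, then 30% epiboly, 50% epiboly and shield, followed by 75% epiboly, 90% epiboly and tailbud. All embryos were uninjected, came from outbred wild-type fish, were kept at 28.5 °C and were pooled by 30 to 50 per stage from a single clutch. Each stage was hybridised once, as Cy5, against Cy3-labelled RNA pooled in equal amounts from the 9 stages, so no stage had a replicate and no difference between stages could be tested. The text deposited with the series mentions hybridisations with swapped dyes, while the labels of all 9 arrays used here give the stage as Cy5. Any difference between the dyes at a probe is therefore part of its ratio. Signals from whole embryos do not tell fewer cells with a transcript apart from less of it per cell.

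A fertilised fish egg begins development on RNA laid down by the mother. The embryo's own genome becomes broadly active during the blastula stages, around the high and sphere stages, and many maternal transcripts are degraded by early gastrulation. A transcript can hold its share of the RNA through this handover by long-lived maternal copies or by new copies that take the place of the old. Such transcripts are sought as reference genes for measuring others, and a ratio to a pool does not tell these courses apart. The files do not pair the oligonucleotides with gene names, so no gene, function or genome position is given for any of the 200, which are named by ID.

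The log2 ratio of stage over pool, less the median of its array, spanned a median of 0.40 over the 9 stages among the 200 transcripts, a 1.32-fold difference between the highest and the lowest stage. Among the other 5594 it spanned a median of 1.37, or 2.59-fold. Within the 200 the range ran from 0.19 to 0.47, with 25% of them under 0.35. At the limit the order was dense. The last transcript inside, CGENXEB_456009351_0, had a range of 0.4722, and the closest one outside, CGENXEB_456013911_0, a range of 0.4726. CGENXEB_456009351_0 lay lowest at 64-cell, with 0.04, and highest at tailbud, with 0.52. CGENXEB_456013911_0 lay highest at 30% epiboly, with 0.95, and lowest at shield, with 0.48, followed closely by 75% epiboly with 0.49.

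Evenness did not mean identical levels, and small shifts ran through the 200 from array to array. Their median log2 ratio was 0.40, 0.42 and 0.38 at the 64-cell, high and sphere stages, 0.41 and 0.49 at 30% and 50% epiboly, 0.50 at shield, 0.42 and 0.51 at 75% and 90% epiboly, and 0.44 at tailbud. The medians at 50% epiboly, shield and 90% epiboly were thus the highest. In the other 5594 the median was 0.51 and 0.53 at 64-cell and high, 0.42 at 50% epiboly, 0.65 at shield and 0.47 at 90% epiboly. The highest value of a transcript lay at shield for 48 of the 200, at 90% epiboly for 39 and at 50% epiboly for 28. It lay at 30% epiboly for 8 and at 75% epiboly for 9. The lowest value lay at 64-cell for 44 and at shield for 2. Among the other 5594, the highest value lay at 90% epiboly for 768, at 30% epiboly for 224 and at 75% epiboly for 112. It lay at 50% epiboly for 219 of them. Their lowest value lay at 64-cell for 1027. Shield was also the stage with the most highest values among the other 5594 transcripts, 1239 of them, and with the fewest lowest values, 28, so the 200 share this feature of the shield array.

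**Figure D1:**
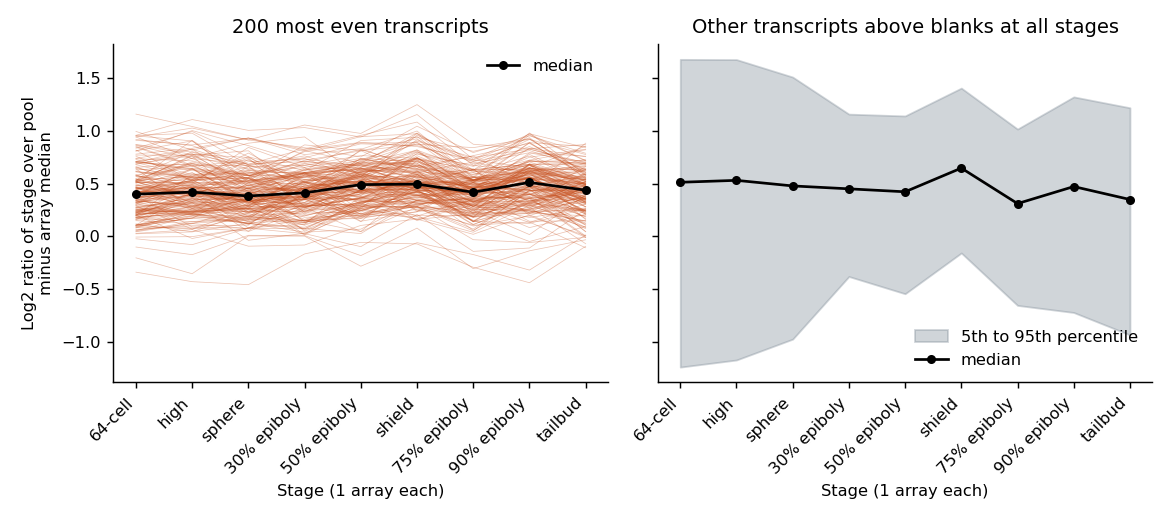
Log2 ratio of stage over pool, less the array median, against stage, with each of the 200 most even transcripts as a thin line and their median in black (left), and the median and the 5th to 95th percentile of the other 5594 transcripts (right). The medians of the 200 stay between 0.38 and 0.51, while the band of the others is widest at 64-cell, from -1.24 to 1.68.

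From sphere to 30% epiboly, the step with the largest median change in the other transcripts, the 200 moved about as little as at the steps around it. The median size of the change there was 0.11 on the log2 scale in the 200 and 0.44 in the others. The 200 moved most at the 3 last steps, by a median of 0.15 from shield to 75% epiboly, 0.14 from 75% to 90% epiboly and 0.16 from 90% epiboly to tailbud. The direction of these late movements was mostly shared, in the 200 and in the others alike. At 75% epiboly 77% of the ratios of the 200 were lower than at shield, against 81.5% of the others. At 90% epiboly 75% were higher than at 75% epiboly, against 67.6% of the others. At tailbud 66.5% were lower than at 90% epiboly, against 63.6% of the others. The shares differed more before: from 30% to 50% epiboly 66.5% of the 200 rose, against 46.9% of the others. From 50% epiboly to shield 65.5% of the 200 rose, against 83.3%. At the steps up to 30% epiboly the shares of the 200 and the others lay closer together. Averaged over the 6 stages from 30% epiboly on, the ratio exceeded the average of the 3 earlier stages in 123 of the 200 (61.5%) and in 48.9% of the others. The median difference was 0.04 in the 200, with extremes of -0.26 and 0.34, and -0.03 in the others, with 5th and 95th percentiles of -1.81 and 1.84. In 12 of the 200 every later stage lay above every earlier one, which held for 24.9% of all 5794 transcripts. In 5 of the 200 every later stage lay below, which held for 25.2% of all. A rank correlation with stage order of at least 0.7 over the 9 arrays was seen in 24 of the 200 (12%), against 1327 of the others (23.7%), and one of at most -0.7 in 8 (4%), against 1445 (25.8%). Since a narrow range was what chose the 200, these counts are descriptions.

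The 4 transcripts with the narrowest ranges show what the evenness looks like per array. CGENXEB_456011298_0 had the smallest range, 0.19. Its log2 ratio was 0.18, 0.22 and 0.27 at the 64-cell, high and sphere stages, 0.11 and 0.30 at 30% and 50% epiboly, 0.27 at shield, 0.29 and 0.18 at 75% and 90% epiboly, and 0.26 at tailbud. Its lowest stage, 30% epiboly, was followed directly by its highest, so no course over stages is apparent. Its Cy5 signal was modest throughout, 1588.5 at 64-cell, 458 at shield and 1308.5 at tailbud, and at its weakest only 1.12 times the blank limit.

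CGENXEB_456006769_0, with a range of 0.19 as well, was brighter. Its log2 ratio was 0.71, 0.78 and 0.67 at the 64-cell, high and sphere stages, 0.76 and 0.59 at 30% and 50% epiboly, 0.78 at shield, 0.67 and 0.61 at 75% and 90% epiboly, and 0.73 at tailbud. Its lowest Cy5 signal, at shield, was 2.20 times the blank limit. CGENXEB_456008539_0, next with 0.20, lay at 0.41 to 0.48 from 64-cell to 30% epiboly and at 0.45 to 0.61 after that. With a rank correlation of 0.72 over 9 stages it is among the 24 that drifted upward. CGENXEB_456010119_0 followed with 0.21. Its ratio lay between 0.23 at sphere and 0.44 at tailbud, and its weakest Cy5 signal was 1.15 times the blank limit.

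The even ratios rest on spot signals that were not even. As scanned, the Cy5 signal of the 200 differed by a median of 1.92 on the log2 scale, 3.79-fold, between its highest and lowest array, against 2.49 (5.62-fold) in the others. The median Cy5 signal of the 200 was 1879.5, 945 and 918 at the 64-cell, high and sphere stages, 1001 and 859.5 at 30% and 50% epiboly, 557.5 at shield, 1902 and 1591 at 75% and 90% epiboly, and 1402 at tailbud. The median of all 16176 IDs took much the same course, with 1004 at 64-cell, 325 at shield and 980 at 75% epiboly. The subtracted array medians of the log2 ratio were 0.02, -0.90, -0.96, -0.80, -0.95, -0.89, -0.36, -0.41 and -0.51 in stage order. In the authors' deposited ratios, which are not centred, the 200 accordingly spanned a median of 1.02 on the log2 scale, or 2.03-fold, with medians of 0.42 at 64-cell, -0.57 at sphere and 0.07 at 75% epiboly. The 200 are therefore constant relative to the middle of each array, and amounts per embryo were not measured. That middle was taken over all 16176 IDs, detected or not. Of these IDs, 6531 exceeded the blank limit in Cy5 at shield and 11273 at tailbud. At shield the median Cy5 signal of all IDs, 325, was under the blank limit of 407.5.

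**Figure D2:**
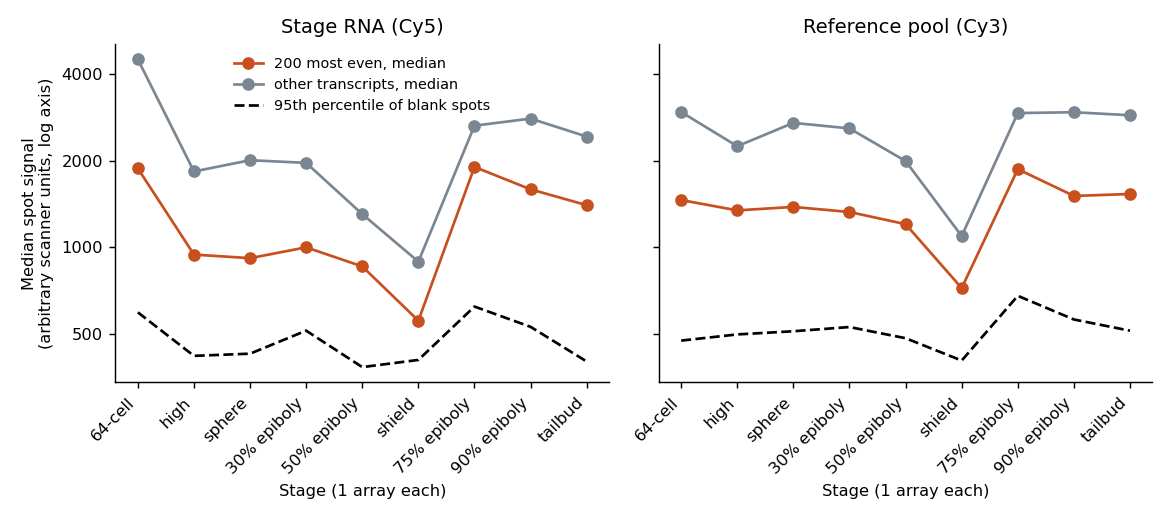
Median spot signal in arbitrary scanner units on a log axis against stage, for stage RNA in Cy5 (left) and the reference pool in Cy3 (right), with the 200 most even transcripts in orange, the other transcripts in grey and the 95th percentile of blank spots as a dashed line. At shield the Cy5 median of the 200, 557.5, comes closest to the blank limit of 407.5.

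The pool channel carried the same RNA on every array, and there the 200 were also steadier than the rest. After subtraction of each array's median, their Cy3 signal ranged over a median of 0.52 on the log2 scale, against 0.80 in the other transcripts. In 154 of the 200 (77.0%) the ratio varied less over arrays than the transcript's own pool signal did, which held for 843 of the others (15.1%). Their centred Cy5 signal ranged over a median of 0.59, against 1.51 in the others. Both channels are parts of the ratio that chose the 200, so these values describe the choice. The ratio uses spot means less background, while these signals are spot medians without background subtraction, so their ranges are unlike measures. The 200 were mostly dim, as given below, and these comparisons were not matched for brightness.

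Although they were selected as detected at all stages, the 200 were mostly dim. When the 5794 transcripts were ordered by brightness, the mean log2 signal of both channels after background subtraction, the median of the 200 stood at the 15.8th percentile. Of the 200, 71 (35.5%) lay in the dimmest decile and 140 (70.0%) in the dimmest 3 deciles, against 9.10% and 28.6% of the other transcripts. Of 200 transcripts chosen without centring 80 lay in the dimmest 3 deciles, and of 200 chosen with a detection limit of 2 times the blank level in both channels 85 lay in the dimmest 3 deciles of those that passed it. In the brightest decile there were 3 of the 200. Among all 5794 transcripts the median range was 0.85 in the dimmest decile, 1.08 in the next and 1.63 in the brightest. At its weakest stage the Cy5 signal of the 200 was a median of 1.35 times the blank limit, against 1.95 times in the others, and it was at least 2 times that limit at every stage for 41 of the 200 (20.5%) and 2731 of the others (48.8%). In the pool channel all 200 exceeded the 95th percentile of blanks on every array, as did 99.9% of the others. The name of well-detected transcripts thus holds by the rule, while most of the 200 were near its lower edge. The part of spot brightness in the small ranges was not tested.

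**Figure D3:**
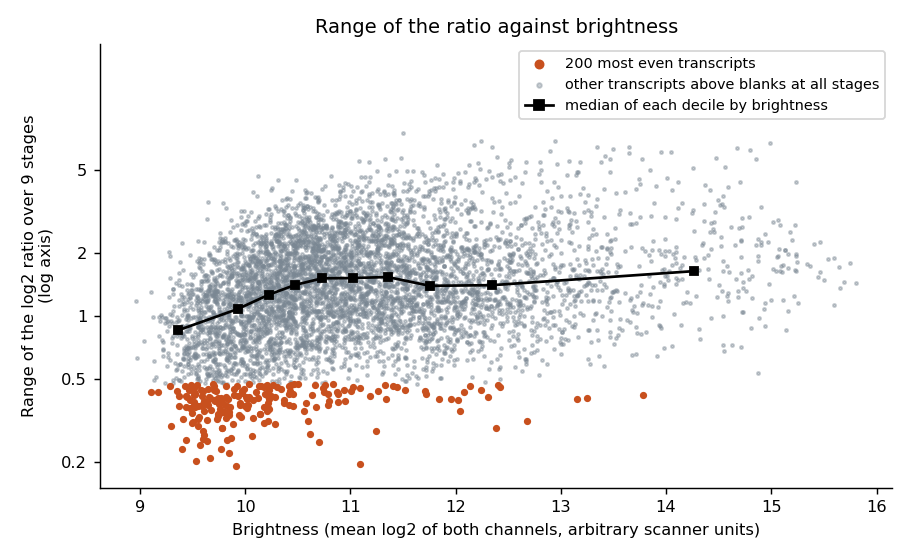
Range of the log2 ratio over the 9 stages (log axis) against brightness in log2 scanner units, with the 200 most even transcripts in orange, the other 5594 in grey and the median of each decile by brightness as black squares. Of the 200, 140 lie in the dimmest 3 deciles, and the median range is 0.85 in the dimmest decile.

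A few of the 200 were bright, and their signals, averaged over the spots of an ID, lay far from the blank spots. At least 5 times the blank limit at every stage was reached by 10 of the 200 (5%) and by 918 of the others (16.4%). The brightest, CGENXEB_456000815_0, never fell under 17.5 times that limit, with a Cy5 signal of 42380.5 at 64-cell, 7128.5 at shield and 21697 at tailbud. It also had the highest mean ratio of the 200, 1.00 on the log2 scale, and its ratio lay between 0.83 at 90% epiboly and 1.25 at shield.

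CGENXEB_456004586_0, singled out after its values were seen because it too lay in the brightest decile, had log2 ratios of 0.51, 0.71 and 0.58 at the 64-cell, high and sphere stages, 0.67 and 0.57 at 30% and 50% epiboly, 0.92 at shield, 0.71 and 0.89 at 75% and 90% epiboly, and 0.56 at tailbud. Shield and 90% epiboly stand out as its high stages. In the 200 as a whole 50% epiboly was high as well, which was not so here. CGENXEB_456009050_0, also singled out afterwards, had a range of 0.29 and at its weakest a Cy5 signal of 5.56 times the blank limit. Its ratio was 0.94, 1.03 and 0.91 at the 64-cell, high and sphere stages, 0.84 and 0.75 at 30% and 50% epiboly, 1.04 at shield, 0.79 and 0.95 at 75% and 90% epiboly, and 0.79 at tailbud. At the other end, the dimmest of the 200, CGENXEB_456014434_0, had a ratio between 0.01 at 30% epiboly and 0.45 at 90% epiboly and a Cy5 signal as low as 1.03 times the blank limit.

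The mean ratio over the 9 stages comes from the same values as the range and is given as a description. It lay above 0 for 197 of the 200 and below 0 for 3, with a median of 0.44 ± 0.19 (SD over the 200 transcripts). The others had a median of 0.42 ± 0.27, and 93.5% of them lay above 0. The median of this mean depended on the centring. It was 0.01 for 200 transcripts chosen after centring on those detected at all stages. For 200 chosen with loess within each array it was 0.09, and without centring -0.14. Without exchanged dyes, the response of a probe to each dye is also part of this mean. What the mean consists of was not tested.

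The 200 were unevenly placed on the array, a property that the rule did not use. Spots are printed in 32 blocks, and the 4 blocks with the most of the 200, chosen after the counts were seen, were 3, 9, 18 and 19, with 26, 18, 33 and 30 of them. Together these blocks held 107 of the 200 (53.5%) and 1110 of the other transcripts (19.8%). In them 8.79% of the transcripts detected at all stages belonged to the 200, against 2.03% in the other 28 blocks, of which 5 held none. The same 4 blocks had more detected transcripts, 60.3% of their IDs against 32.3%. Their dim spots were also brighter: the 10th percentile of Cy5 in a block, relative to the array median and averaged over arrays, was 0.70 to 0.78 in the 4 blocks and 0.26 to 0.64 in the others. By share of their detected transcripts these are not the 4 highest blocks: block 22 had 7.38%, or 11 of the 200, above the 5.96% of block 9. The 10th percentile of Cy5 was 0.40 in block 22, and block 4, with 0.64, held 4 of the 200.

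**Figure D4:**
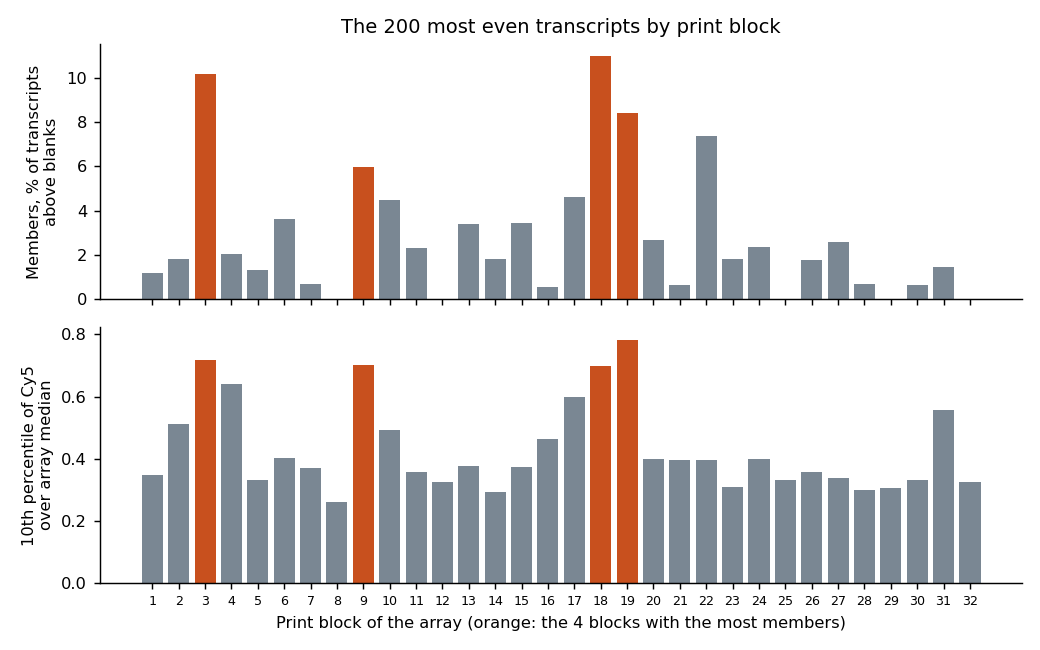
Share of the transcripts detected at all stages that belong to the 200, in percent, by print block (top), and the 10th percentile of the Cy5 signal of a block's probe spots over the array median, averaged over the 9 arrays (bottom). The 4 blocks in orange, 3, 9, 18 and 19, hold 107 of the 200 and have the highest values in the lower plot.

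The placement was also seen among the brighter transcripts, and the dimness also outside the 4 blocks. Outside the 4 blocks, 56 of 93 members of the 200 (60.2%) still lay in the dimmest 3 deciles, against 25.9% of the others there. Among transcripts brighter than those 3 deciles, 23 of the remaining 60 (38.3%) lay in the 4 blocks, against 16.8% of the others. The 4 blocks were chosen by these same 200, so a raised share in them is in part built in. The number in these blocks depended on the processing. Of 200 chosen without centring 58 (29%) lay in the same 4 blocks, against 21.0% of all 5794. With loess within each array the number was 87. In settings added once the values were known, it was 56 with the doubled detection limit and 128 after subtraction of the median of each print block. The doubled limit left 2741 transcripts, and their share in these blocks was not counted. The other settings that chose 200 with these blocks included lay between 87 and 128. The part of print block in the small ranges was not tested.

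Spot flags from the image software, also unused by the rule, were rarer among the 200. A flag in the Cy5 channel on at least 1 array was set for 29 of the 200 (14.5%) and 1409 of the others (25.2%). A signal near the top of the scanner's scale, at 65000 or above, occurred on some array for 1 of the 200 and for 130 of the others (2.32%). These counts were not matched for brightness, and 70.0% of the 200 lay in the dimmest 3 deciles. The pixels of a Cy5 spot varied by a median of 0.34 times their mean in the 200 and 0.36 times in the others.

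Repeated spots of an ID give a measure of the error within an array. Of the 5794 transcripts, 39 were on 2 spots, and their log2 ratios on the same array differed by a median of 0.31. Of the 351 differences, 66.4% were within 0.4722, the range that bounded the 200. These measures are unlike, as a difference is between 2 spots on 1 array and a range between the extremes of 9. The IDs on 2 spots were not matched to the 200 for brightness. Some had spots at the top of the scanner's scale, and some had a spot under the blank limit. How much of a range was error was not tested. Of the 200, 196 were on a single spot, with no second reading on any array.

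Among the 200, 4 were on several spots and entered as averages. CGENXEB_456001061_0, which lay in the brightest decile, was on 13 spots whose ratios on the same array spread by a median of 1.47. Its spots had Cy5 signals from 165 to 65314, 1 of them never exceeded the blank limit, 2 reached the top of the scale, and only 2 had a range within 0.4722 by themselves. CGENXEB_456001177_0, on 5 spots, had the lowest mean ratio of the 200, -0.26, and its averaged ratio lay between -0.46 at sphere and -0.06 at 50% epiboly. None of its 5 spots had so small a range alone, and 2 never exceeded the blank limit. For CGENXEB_456000192_0 and CGENXEB_456001188_0, on 2 spots each, 0 and 1 of the spots had a range within 0.4722 alone. The averaged ratios of these 4 IDs were even, while most of their single spots were not.

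Which transcripts belong to the 200 depended on how the ratios were made. With background medians in place of means 198 of the 200 were chosen again. The authors' deposited ratios, centred, also gave 198. For IDs on a single spot these are the same ratios that chose the 200, so that number could hardly differ. Both settings are among the 9 ways counted next. Loess within each array, which removes the dependence of the ratio on brightness, chose 79 of them, loess within print blocks 78, and uncentred ratios 35. Over 9 ways of making the ratio, print-block settings included and uncentred ratios left aside, 18 of the 200 were chosen every time. Of these, 17 were also chosen whenever any 1 array was left out. Leaving out an array cannot widen a range, so transcripts with narrow ranges mostly stay, as 98 of the 200 did at every omission. That step therefore adds little. CGENXEB_456010119_0 and CGENXEB_456009050_0 were among the 17, while CGENXEB_456011298_0 was chosen in 8 of the 9 ways and CGENXEB_456006769_0 in 7. The brightest of the 200, CGENXEB_456000815_0, was chosen in 3 of the 9 ways. Of the 17, 13 lay in print blocks 3, 9, 18 and 19, which were chosen for holding the most of the 200.

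These 17 transcripts were, with 1 exception, dim. Of them 16 lay in the dimmest 2 deciles, where the Cy5 signal at the weakest stage was between 1.02 and 1.38 times the blank limit. The exception was CGENXEB_456009050_0, the only one of the 17 with at least 2 times that limit at every stage. After CGENXEB_456010119_0, the narrowest ranges among the 17 were those of CGENXEB_456003907_0, CGENXEB_456013383_0 and CGENXEB_456011107_0, with 0.22, 0.23 and 0.23, all printed in block 18 and with a weakest Cy5 signal of 1.28, 1.33 and 1.37 times the limit. Among the 10 of the 200 that stayed at 5 times the limit or more, the next narrowest range after the 0.29 of CGENXEB_456009050_0 was the 0.31 of CGENXEB_456011067_0, whose weakest signal was 7.52 times the limit. These IDs were singled out after their values were seen, and the counts describe a choice made on the same arrays.

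**Figure D5:**
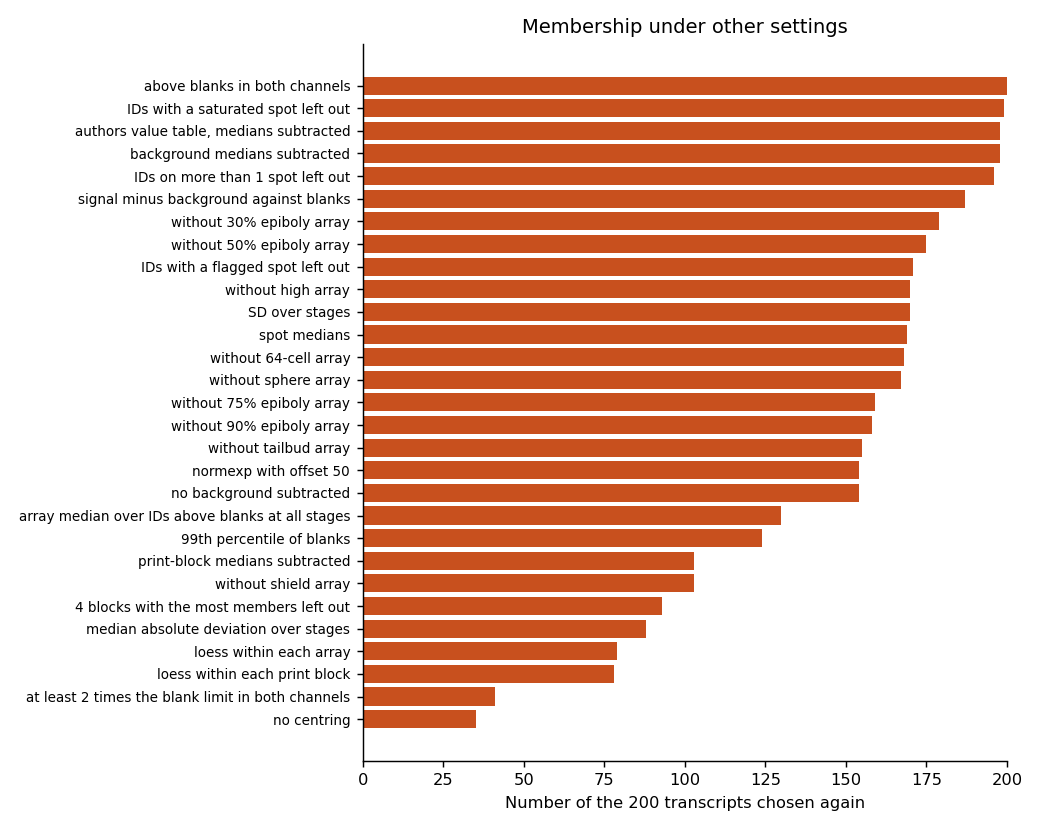
Number of the 200 transcripts chosen again when one step of the processing, the limit for detection, the measure of evenness or the set of arrays was changed. The number lies between 35 without centring and 200 when detection was asked of both channels, a limit that all 200 already passed. Where a setting only removed IDs, as for flagged or saturated spots, it counts the members that remained.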

How the data were processed

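Spotted oligonucleotide arrays with 2 colours were analysed, 1 per stage. From 800 ng of total RNA, amplified RNA was coupled to Cy5 or Cy3, per the labels' protocols. The deposited scanner tables give linear intensities per spot, with local backgrounds, read with ImaGene per the file headers and not normalized; no version or setting of that software is stated. A value table by the authors, also deposited, holds log2 ratios. They equalled log2 of Cy5 over Cy3, each as spot mean minus background mean, within 0.001 for every ID on a single spot, and were not centred.

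Log2 ratios were computed in this way from the scanner tables, averaged over the spots of an ID, and centred on each array's median over all 16176 IDs (Python 3.11.15, pandas 2.3.3). Of the IDs detected at all stages, 10 lacked a ratio on some array and were left out. Loess and normexp (offset 50) used limma 3.58.1 under R 4.3.3. No p-value is given, since 1 array per stage leaves no replicate and the ratios chose the members. The number of arrays limits the precision.

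The members and the comparisons were chosen with earlier results of these data known. IDs were named by rank: the 4 smallest ranges, those on either side of the limit, the brightest and the dimmest, the highest and the lowest mean ratio, and those on several spots; any other is said to have been singled out afterwards. Gene lists could not be applied without gene names. Alternatives covered background, centring, detection limit, flagged and saturated spots, the measure of evenness, the number chosen and each array left out.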

Additional observations from a re-analysis of the deposited data

Results flagged for a closer look

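Control spots, left out of the choice of the 200, exceeded the blank limit (95th percentile) in Cy5 at all 9 stages for 8 names. The lowest median Cy5 signal over that limit was 14.86 for CGENZFCTRL_40001_0 (172 spots), 18.53 for Pooled Control (31 spots) and 1.96 for polyA (16 spots). For single spots it was 23.25 for Diln1 Neat, 14.12 for Diln1 0.5, 5.21 for Diln1 0.25, 1.27 for Diln1 0.125 and 2.43 for N6. The centred log2 ratios of these controls ranged over 0.75 to 1.49, and none was within the 0.47 that bounded the 200. That bound was set by choosing the smallest ranges. Over all 5794 transcripts detected at all stages the median range was 1.34. The ratio of CGENZFCTRL_40001_0 was -0.35, -0.37 and -0.27 at 64-cell, high and sphere, and between 0.34 and 0.91 from 30% epiboly on. For Pooled Control it was -0.46, -0.41 and -0.35, then between 0.55 and 1.01. The Diln1 spots named here were likewise negative at the first stages and positive from 30% epiboly on. The ratios of polyA and N6 were positive at all 9 stages. What lies behind these shifts was not tested.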

How the results depend on the processing

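No paired analysis was possible because each stage has 1 sample. The number of the 200 chosen again was 79 with loess within each array, 35 without centring, 130 with centring on the transcripts detected at all stages, 124 with the 99th percentile of blanks, 88 with the median absolute deviation, and 103 to 179 when 1 array was left out. The lowest was without shield, the dimmest array, where 7000 transcripts counted as detected in place of 5794. Of alternatives added after the data were seen, print-block medians kept 103, loess within print blocks 78, a detection limit of 2 times the blank level in both channels 41, and leaving out the 4 blocks 93. For the last 2 and the 99th percentile, fewer IDs entered with unchanged ratios, so these numbers only count the members that still passed. The median range of the chosen transcripts was 0.83 without centring, 0.51 with the median absolute deviation and 0.47 for 400 in place of 200. It was 0.32 to 0.38 with 1 array left out, but a range over fewer arrays cannot be larger, so this fall is built in. With loess within print blocks the median range was 0.32, with the doubled detection limit 0.59 and without the 4 blocks 0.48. The range of the last transcript inside was 0.54 with the 99th percentile, and the median mean ratio was 0.22 with normexp. The number in the dimmest 3 deciles was 80 without centring, 85 with the doubled limit and 135 to 151 with 1 array left out. The number in the 4 blocks was 58 and 56 in the same settings and 96 to 115 with 1 array left out. A change in a median or a range was called against the spread among the 200 transcripts, and a change in a count against a fixed fold limit. There were no replicates, so neither limit measures the error of a stage. The median Cy5 signal of the 200 was 1.37 times the blank limit at shield, the lowest of the 9 arrays.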

Other observations

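The ID numbers of the 200 were also uneven. Of the detected transcripts with numbers in the 8000s after the shared start of the ID, 33 of 343 (9.62%) were among the 200, against 1.60% to 3.74% in the other 16 runs of 1000 numbers. All 343 were printed in columns 11 and 12 of their blocks. These columns held 41 of the 200 (20.5%) and 481 of the others (8.60%). Of the 41, 33 had numbers in the 8000s. This was noticed in the data and not tested.

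Among controls whose lowest median Cy5 signal was under the blank limit, the range of the average log2 ratio was 0.45 for YtRNA (15 spots), the only control within the range that bounded the 200, and 0.51 for the 262 blank spots. It was 0.71 for hCot-1 (15 spots), 0.97 for ssDNA (16 spots) and 1.70 for zGenomic (16 spots). These are averages of many spots and not comparable one to one with a single spot.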
